A study of Homo sapiens with 12 samples.

Results

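Immediate early genes outside the AP-1 family were examined in cerebral organoids (COs), which are three-dimensional neural cultures grown from pluripotent stem cells. The 7 genes, chosen by their symbols, were *EGR1*, *NR4A1*, *KLF6*, *BTG2*, *DUSP1*, *IER2* and *CCN1*, and all 7 were found among the 10976 genes listed in each library. The 12 libraries came from 3 lines on days 12 and 24, with 2 libraries for each line and day. WT was the human embryonic stem cell line H1. KO#2 and KO#10 were derived from H1 by CRISPR-Cas9 editing of *c-JUN*, and each is a single clone. All lines went through the same induction to COs, and RNA from several pooled COs made 1 library. The 4 libraries of KO#2 and KO#10 on a day were compared with the 2 WT libraries as KO against WT.

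Immediate early genes are switched on within minutes by growth factors, stretch or other stress, without the need for new protein. Serum response factor (SRF) with its ETS partners, and CREB, wait at their promoters, and ERK kinase signaling activates both. The transcripts are short-lived, so that their level follows recent signaling. c-JUN itself belongs to this class as a part of AP-1, which is why the members that are not AP-1 subunits were set apart here.

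The deposited values are normalised whole numbers per gene with the same median (17) and highest value (5585) in every library. The depth of the libraries is therefore unknown, and no counting error can be given. Levels are compared between libraries for 1 gene at a time, never between genes. Sums over marker genes are given only as a rough description. *JUN*, the edited gene, went against the labels. On day 12 WT had 4 and 8, KO#2 had 19 and 18, and KO#10 had 14 and 13. On day 24 WT had 13 and 15, KO#2 had 39 and 39, and KO#10 had 29 and 32. *JUN* RNA therefore does not check these labels, and each direction below rests on libraries as they were labelled KO or WT. By RT-qPCR the paper found *c-JUN* RNA absent from KO COs, and its western blots found no c-JUN protein in the KO lines. The values here differ from that RT-qPCR, and the cause was not tested. The marker genes of other tissues differed on day 24. The summed value of 4 endoderm genes of the 6 listed was 6257 and 6341 in the libraries labelled WT and 33 to 1091 in those labelled KO. The summed value of 6 mesenchyme genes of the 7 listed was 2070 and 2443 in WT and 134 to 2890 in KO. On the same day the pluripotency sum, over 6 of 6 genes, was 376 and 702 in WT and 25 to 44 in KO. The epithelium sum, over 6 of 6 genes, was 602 and 797 in WT and 44 to 249 in KO, and the neuronal sum, over 8 of 8 genes, was 157 and 319 in WT and 403 to 1994 in KO. The mesenchyme sums of WT and KO overlapped, and the other 4 did not. Genes with high values weigh most in such sums, as *AFP* alone was 5585 in both WT libraries of day 24. Gene by gene, 4 of 8 neuronal genes were at least 2-fold higher in KO at an adjusted *p* under 0.05 (limma), against 4.22% of all genes. All of 4 endoderm, 6 epithelium and 5 tested pluripotency genes were lower in every KO library than in either WT library, against 21.8% of all genes. Some neuronal, epithelium and pluripotency genes entered the test only by reaching a value of 10 in the higher group, so that nothing is read from these counts. The highest endoderm and mesenchyme values among the KO libraries came from KO#10 replicate 1, which also had a neuronal sum of 403 against 1367 to 1994 in the other KO libraries. Most results that use day 24 are given also without that library. The part of these tissues in the results of day 24 was not tested. On day 12 the endoderm sums were 0 to 17 and the mesenchyme sums 27 to 49 in all 6 libraries, and the pluripotency sums, over 6 genes, were 696 and 829 in WT and 422 to 483 in KO. The neural progenitor sums of day 12, over 8 genes, were 550 and 704 in WT and 846 to 1031 in KO. In bulk RNA, fewer cells of a type and less RNA per cell cannot be told apart.

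The listed coordinates match the human build GRCh38: 10975 of 10976 intervals overlap the GENCODE 29 interval of the same gene. The submitters' processing notes name only mm10, a mouse build, so that the build is inferred here from the coordinates. *EGR1* (ENSG00000120738) is listed at chr5:138465479-138469303 on the plus strand, *NR4A1* (ENSG00000123358) at chr12:52022832-52059507 on the plus strand, and *KLF6* (ENSG00000067082) at chr10:3775996-3785281 on the minus strand. *BTG2* (ENSG00000159388) is listed at chr1:203305491-203309602 on the plus strand and *DUSP1* (ENSG00000120129) at chr5:172768096-172771195 on the minus strand. *IER2* (ENSG00000160888) is listed at chr19:13150411-13154911 on the plus strand, and *CCN1* (ENSG00000142871), called *CYR61* in GENCODE 29, at chr1:85580761-85584589 on the plus strand. All 7 are protein-coding. Noncoding genes on the opposite strand overlap *NR4A1* (1045 bases), *IER2* (1123 bases) and *DUSP1* (3100 bases, the whole gene). It is not stated if strand entered the counting, so that reads of these 3 genes and their antisense partners may not have been told apart.

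Promoter windows from 250 bases before to 50 bases after the start site were taken from RefSeq (GRCh38.p14) for 6 of the 7 genes, with 2 windows for *NR4A1*, and *CCN1* had no entry. Both strands were searched for the CArG box (the SRF site), for TGACGTCA and its shorter part TGACGT (CREB sites), TGACTCA (AP-1), CGGAAG (ETS), GCGTGGGCG (EGR) and TATAAA. The *EGR1* and *DUSP1* stretches are shown because they hold the SRF and CREB letters through which such genes are classically induced. The *EGR1* stretch is chr5:138465329-138465428 on the plus strand, from base -150 to base -51, with CArG boxes in capitals. The *DUSP1* stretch is chr5:172771211-172771335 on the minus strand, from base -140 to base -16, with TGACGTCA and TATAAA in capitals. Both are written 5′ to 3′.
EGR1: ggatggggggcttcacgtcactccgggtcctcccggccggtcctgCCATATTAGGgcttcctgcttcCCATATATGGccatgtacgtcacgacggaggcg
DUSP1: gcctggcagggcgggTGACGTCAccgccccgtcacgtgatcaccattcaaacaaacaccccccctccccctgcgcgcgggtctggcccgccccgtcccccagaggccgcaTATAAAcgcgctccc
The *EGR1* CArG boxes start at bases -105 and -83, and *EGR1* also holds TGACGT on the opposite strand from bases -136 and -67. A CArG box stood in 1.29% of 35116 promoter windows and TGACGT in 7.98%. TGACGTCA was found in 1.85% of windows, and in *DUSP1* it starts at base -125, with a further TGACGT at base -172. TATAAA, in 11.5% of windows, starts at base -30 of *DUSP1*. *IER2* held CGGAAG on the opposite strand from bases -70 and -27, a match that 19.5% of windows share. No window of these genes held TGACTCA (4.95% of all windows) or GCGTGGGCG (0.795%), which says only that these letters are not in these windows.

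The first question was how far these genes differed between the libraries labelled KO and WT on day 12. *CCN1*, *NR4A1* and *DUSP1* had higher values in every KO library than in either WT library, but none of the 7 genes was called. A gene was called at a Benjamini-Hochberg adjusted *p* under 0.05 and a change of at least 2-fold, by limma over all genes tested on log2 (value + 1). On that rule 0 of 7 genes passed, against 0.0900% of the 8885 genes tested (8 genes). At an unadjusted *p* under 0.05 there were 3 of 7, against 11.0% of all genes. Of the 7 genes, *EGR1*, *NR4A1* and *DUSP1* reached the minimum value of 10 in KO libraries alone, so that they could enter the test only by being higher there.

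**Figure D1:**
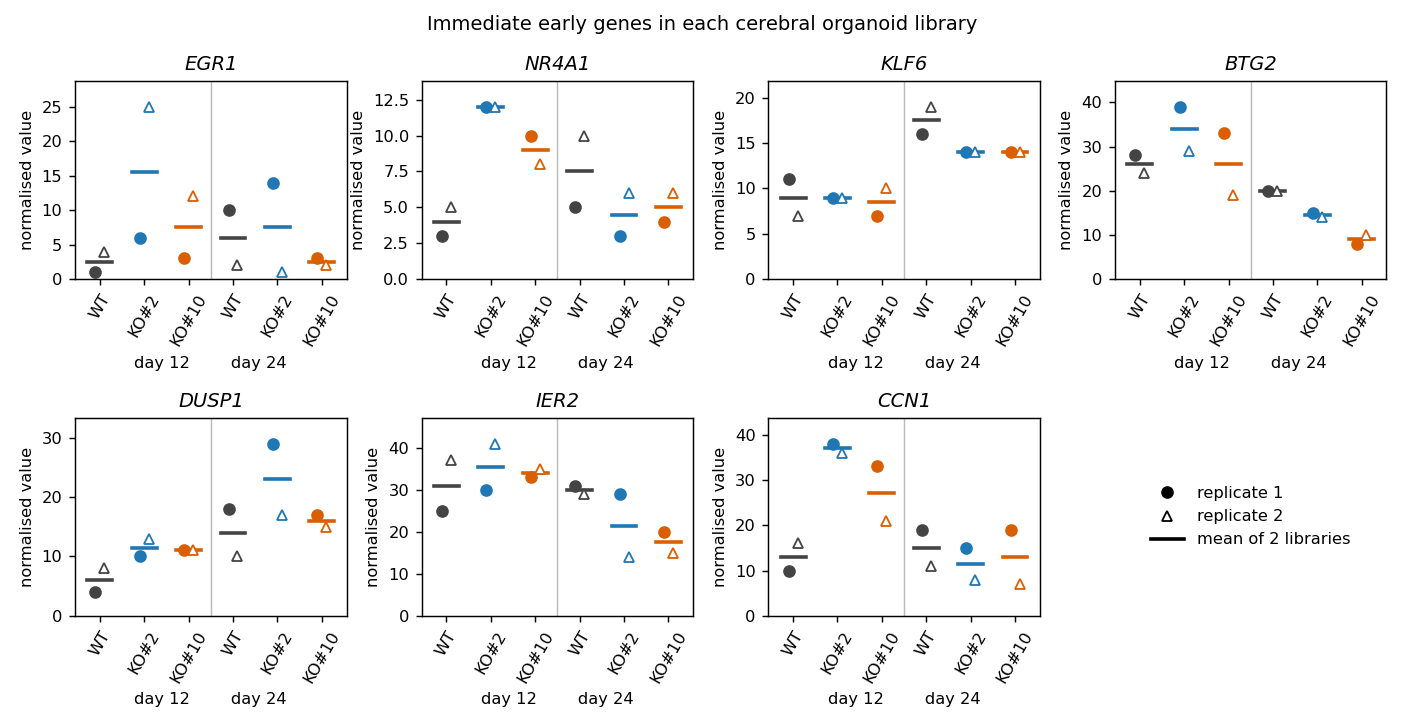
Normalised value (vertical axis, linear from 0, own scale for each gene) of the 7 genes in every library, with filled circles for replicate 1, open triangles for replicate 2 and bars for the mean of the 2 libraries of a line. On day 12 *CCN1* ranged from 21 to 38 in KO and lay at 10 and 16 in WT. On day 24 *BTG2* ranged from 8 to 15 in KO and lay at 20 in both WT libraries.

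*EGR1* encodes a zinc finger transcription factor that turns growth factor and synaptic signals into target gene expression. On day 12 WT had 1 and 4, KO#2 had 6 and 25, and KO#10 had 3 and 12. The KO#10 and WT ranges overlapped, and the replicates of each KO clone lay further apart than the means of KO#10 and WT. KO against WT gave a log2 fold change of 1.64 ± 0.73 (SE, adjusted *p* = 0.463, limma), and without WT replicate 1 it was 0.98. *NR4A1* encodes an orphan nuclear receptor that is induced without any ligand. Its values were 3 and 5 for WT, 12 and 12 for KO#2 and 10 and 8 for KO#10, with no overlap between WT and KO. The log2 fold change was 1.22 ± 0.28, and the adjusted *p* was 0.170 (limma). *KLF6* encodes a zinc finger factor that binds GC-rich promoters. It stood at 11 and 7 for WT, 9 and 9 for KO#2 and 7 and 10 for KO#10, all within the WT range, with a log2 fold change of -0.02 ± 0.25.

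*BTG2* encodes an antiproliferative protein that promotes mRNA deadenylation and marks neurogenic divisions of neural progenitors. On day 12 it was 28 and 24 for WT, 39 and 29 for KO#2 and 33 and 19 for KO#10, so that the KO libraries lay on both sides of WT. Its log2 fold change was 0.16 ± 0.26. *DUSP1* encodes a phosphatase that switches MAP kinases off and so limits the signal that induces it. Its values were 4 and 8 for WT, 10 and 13 for KO#2 and 11 and 11 for KO#10, with every KO library above both WT libraries. The log2 fold change was 0.86 ± 0.27 (adjusted *p* = 0.278, limma). *IER2*, a small nuclear protein with a role in transcription, was 25 and 37 for WT, 30 and 41 for KO#2 and 33 and 35 for KO#10. These ranges overlapped, and the log2 fold change was 0.18 ± 0.19.

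*CCN1* encodes a secreted matricellular protein that binds integrins and is a common target of YAP and of SRF. It was 10 and 16 for WT, 38 and 36 for KO#2 and 33 and 21 for KO#10, with no overlap. The log2 fold change was 1.24 ± 0.27, and the adjusted *p* was 0.146 (limma), the lowest of the 7. For all 3 genes whose groups did not overlap, WT replicate 1 had the lowest value of the day. Without it the log2 fold change fell to 0.92 for *CCN1*, 0.92 for *NR4A1* and 0.44 for *DUSP1*. A complete separation upwards was seen in 3 of 7 genes, against 8.23% of all genes tested. Of these, *NR4A1* and *DUSP1* had passed the filter through KO libraries alone, so that nothing is read from this count. With the replicate number, which pairs the libraries of day 12, as a block, the adjusted *p*-values were 0.0761 for *CCN1*, 0.0732 for *NR4A1*, 0.0903 for *DUSP1* and 0.0845 for *EGR1*, and 0 of 7 genes were called.

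On day 24 the order was different. *BTG2* and *KLF6* had lower values in every KO library than in either WT library, and *DUSP1* was the only one of the 6 tested genes with a fold change above 0. None of the 6 was called, against 8.01% of the 9289 genes tested (744 genes), and 1 of 6 had an unadjusted *p* under 0.05, against 37.8% of all genes. The complete separation downwards of *BTG2* and *KLF6* was shared by 21.8% of all genes tested. *NR4A1* reached 10 in a single library of that day and was not tested.

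*BTG2* was 20 and 20 for WT, 15 and 14 for KO#2 and 8 and 10 for KO#10, so that KO#2 lay between WT and KO#10. Its log2 fold change was -0.76 ± 0.25 (adjusted *p* = 0.0782, limma), and -0.60 ± 0.19 without KO#10 replicate 1 (adjusted *p* = 0.0623, limma). Other genes of neurogenic progenitors were also counted. Of 7 tested on day 24, *INSM1* (2.04) and *HES6* (1.62) were called higher in KO, 2 of 7 against 4.22% of all genes, and 0 lower. *INSM1* and most of the uncalled genes of this list reached 10 in KO libraries alone. They could enter the test only by being higher there, so that nothing is read from this count. The relation of these genes to *BTG2* was not tested. *KLF6* was 16 and 19 in WT and 14 in all 4 KO libraries, a log2 fold change of -0.30 ± 0.13 (adjusted *p* = 0.148, limma). *IER2* was 31 and 29 for WT, 29 and 14 for KO#2 and 20 and 15 for KO#10, where KO#2 replicate 1 equalled a WT library. Its log2 fold change was -0.65 ± 0.28 (adjusted *p* = 0.136, limma).

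In the other genes WT and KO overlapped on day 24. *EGR1* was 10 and 2 for WT, 14 and 1 for KO#2 and 3 and 2 for KO#10 (-0.40 ± 0.93 as log2 fold change). *CCN1* was 19 and 11 for WT, 15 and 8 for KO#2 and 19 and 7 for KO#10 (-0.33 ± 0.42). *DUSP1* was 18 and 10 for WT, 29 and 17 for KO#2 and 17 and 15 for KO#10 (0.46 ± 0.31). *NR4A1* was 5 and 10 for WT, 3 and 6 for KO#2 and 4 and 6 for KO#10, and when no filter on low values was set its log2 fold change was -0.54 ± 0.35. Without KO#10 replicate 1, *CCN1* gave -0.56, *EGR1* -0.36, *DUSP1* 0.51, *IER2* -0.68 and *KLF6* -0.30, and 0 of 6 genes were called against 14.7% of all genes. For each of the 4 genes that overlapped the replicates of at least 1 line lay further apart than the WT and KO means.

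**Figure D2:**
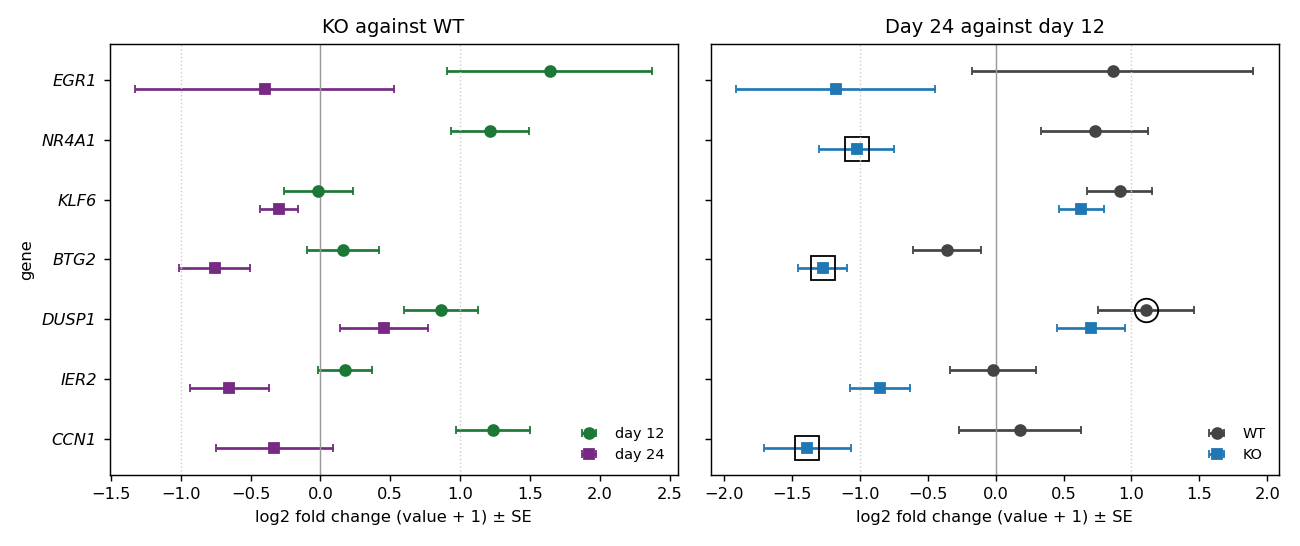
Log2 fold change of log2 (value + 1) with its SE (horizontal axis) for each gene, KO against WT by day on the left and day 24 against day 12 by genotype on the right, where an open black outline marks a called change. On the left *CCN1* lies at 1.24 on day 12 and -0.33 on day 24, and on the right the called changes are *DUSP1* in WT and *NR4A1*, *BTG2* and *CCN1* in KO.

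The difference between the days was tested as the interaction of genotype with day in all 12 libraries, which asks whether the KO effect differed between the days. An estimate below 0 means a lower KO effect on day 24 than on day 12. All 7 estimates were below 0, from -2.04 for *EGR1* to -0.28 for *KLF6*, whereas 51.6% of the 9952 genes tested were above 0. None of the 7 was called, against 1.31% of all genes tested, and 4 of 7 had an unadjusted *p* under 0.05, against 21.5%. The nearest was *NR4A1* with -1.75 ± 0.46 (adjusted *p* = 0.0697, limma), followed by *CCN1* with -1.57 ± 0.53 (adjusted *p* = 0.126, limma). *BTG2* gave -0.92 ± 0.39 and *IER2* -0.83 ± 0.36, with adjusted *p*-values of 0.194 and 0.206 (limma), and *DUSP1* gave -0.41 ± 0.42. Without KO#10 day 24 replicate 1, *NR4A1* (-1.70, adjusted *p* = 0.0369, limma) and *CCN1* (-1.80, adjusted *p* = 0.0316, limma) were called, 2 of 7 against 9.26% of all genes. A replicate block on both days, with 368 genes called in all, also called *NR4A1* and *CCN1*, with adjusted *p*-values of 0.0329 and 0.0430 (limma). A block on day 12 alone, the day whose replicate numbers pair the libraries, gave 0.0634 and 0.117 (limma). *NR4A1* reached 10 only in 3 KO libraries of day 12 and 1 WT library of day 24, where high values make the estimate negative. Nothing is therefore read from its estimate or its calls.

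Change from day 12 to day 24 was then taken within each genotype, in 1 fit of all 12 libraries with these shared between the comparisons. In KO, *CCN1*, *BTG2* and *NR4A1* fell, and 3 of 7 genes were called against 11.4% of the 9952 genes tested (5.58% called lower). An unadjusted *p* under 0.05 was reached by 6 of 7, against 46.3%. *CCN1* went from 21 to 38 in the 4 KO libraries of day 12 to 7 to 19, a log2 fold change of -1.39 ± 0.32 (adjusted *p* = 0.00811, limma). *BTG2* went from 19 to 39 to 8 to 15, with -1.28 ± 0.18 and an adjusted *p* of 0.000782 (limma). *NR4A1* went from 8 to 12 to 3 to 6, with -1.02 ± 0.28 and an adjusted *p* of 0.0171 (limma). None of these 3 ranges overlapped between the days. Without KO#10 day 24 replicate 1 the log2 fold changes were -1.72, -1.20 and -0.90, and 2 of 7 genes were called against 11.6% of all genes, as *NR4A1* (adjusted *p* = 0.0489, limma) lay under the 2-fold limit. *NR4A1* had passed the filter through 3 KO libraries of day 12 and 1 WT library of day 24. Its call in KO is therefore not independent of the filter, and nothing is read from it or from the count of 3. The markers of other cell types moved over the same KO libraries. From day 12 to day 24 the pluripotency sum went from 422 to 483 down to 25 to 44, with 5 of 6 genes called lower. The neuronal sum went from 259 to 349 up to 403 to 1994, with 7 of 8 called higher. The mesenchyme sum went from 33 to 49 up to 134 to 2890, with 4 of 6 called higher. Of the epithelium genes 5 of 6 were called lower. Among all genes 5.79% were called higher and 5.58% lower. The part of these markers in the changes above was not tested.

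*IER2* also had lower values on day 24 in every KO library, 14 to 29 against 30 to 41, with an adjusted *p* of 0.0147 (limma) but a log2 fold change of -0.85 ± 0.22, under the 2-fold limit. *DUSP1* and *KLF6* had higher values on day 24 in every KO library. *DUSP1* was 10 to 13 on day 12 and 15 to 29 on day 24 (0.70 ± 0.25, adjusted *p* = 0.0491, limma, and 0.113 without KO#10 day 24 replicate 1), and *KLF6* was 7 to 10 and then 14 in all 4 libraries (0.63 ± 0.17, adjusted *p* = 0.0156, limma), again under 2-fold. *EGR1* ranged from 3 to 25 and from 1 to 14 on these days, giving a log2 fold change of -1.18 ± 0.73 (adjusted *p* = 0.229, limma). Separation between the days without overlap was seen downwards in 4 of 7 genes, against 15.6% of all genes tested, and upwards in 2 of 7, against 16.0%.

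Leaving out 1 library at a time, *CCN1* and *BTG2* were called in 12 of 12 cases. The call of *NR4A1* was lost in 4 of 12, without replicate 1 of KO#2 or KO#10 on either day, where its log2 fold change was -0.82 to -1.02. *IER2* was called without KO#2 day 24 replicate 1 (-1.10, adjusted *p* = 0.00407, limma). *EGR1* was called with the replicate block on both days (adjusted *p* = 0.0333, limma) and not with the block on day 12 alone (adjusted *p* = 0.150, limma).

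In WT only *DUSP1* was called, 1 of 7 genes against 14.7% of the 9952 genes tested (6.89% called higher). An unadjusted *p* under 0.05 was reached by 2 of 7, against 40.3%. It rose from 4 and 8 to 18 and 10, a log2 fold change of 1.11 ± 0.35 with an adjusted *p* of 0.0419 (limma). This call was lost in 7 of 12 cases with a library left out, and the log2 fold change was 0.68 without WT day 12 replicate 1 and 0.71 without WT day 24 replicate 1. KO#10 day 24 replicate 1 was also among the libraries whose omission lost the call. *KLF6* had values of 11 and 7 on day 12 and 16 and 19 on day 24, with an adjusted *p* of 0.0198 (limma) and a log2 fold change of 0.91 ± 0.24, under 2-fold. *BTG2* was 28 and 24 and then 20 and 20 (-0.36 ± 0.25). *NR4A1* was 3 and 5 and then 5 and 10 (0.73 ± 0.39), *EGR1* gave 0.86 ± 1.03, *CCN1* 0.18 ± 0.45 and *IER2* -0.02 ± 0.31. Endoderm, mesenchyme and epithelium markers were higher in the WT libraries of day 24 than in those of day 12, and their part in these values was not tested.

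The order of the 6 combinations of line and day differed from gene to gene. *CCN1* and *NR4A1* were highest in KO#2 on day 12, above every library of the next group in order, which was KO#10 on day 12. *CCN1* of KO#10 on day 12 was in turn above WT on day 24, while the 4 groups below it overlapped their neighbours. *KLF6* was highest in WT on day 24, above KO#2 and KO#10 of that day, which were above all 3 lines on day 12. *BTG2* was lowest in KO#10 on day 24, followed without overlap by KO#2 and then WT of that day. For *EGR1* and *IER2* no group was separated from its neighbour in the order, and for *DUSP1* only the lowest group, WT on day 12.

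The clones did not differ by a call. KO#10 against KO#2 gave 0 of 7 genes called on either day, as for all 9952 genes (0% called on both days), with 1.55% of all genes at an unadjusted *p* under 0.05 on day 12 and 5.78% on day 24. On day 12, 0 of 7 were under that limit, although *NR4A1* and *CCN1* were lower in both KO#10 libraries than in both KO#2 libraries, as were 8.10% of all genes. On day 24 *BTG2* was lower in KO#10 in the same way, as were 13.8% of all genes, with a log2 difference of -0.64 ± 0.25, an unadjusted *p* of 0.0285 and an adjusted *p* of 0.839 (limma).

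The libraries of a replicate number moved together for some of these genes. On day 12 *EGR1* was higher in replicate 2 than in replicate 1 in all 3 lines, from 1 to 4 in WT, 6 to 25 in KO#2 and 3 to 12 in KO#10. In a fit of line and replicate number the log2 difference was 1.64 ± 0.43, as large as that between KO and WT, with an adjusted *p* of 0.0772 (limma). None of the 7 genes was called, against 0.482% of 9952 genes, and 2 of 7 (*EGR1* and *BTG2*) had an unadjusted *p* under 0.05, against 24.2%. *EGR1* was called when only the 6 libraries of day 12 were fitted (adjusted *p* = 0.0389, limma) and when either KO#10 library of day 24 was left out (adjusted *p* = 0.0314 and 0.0320, limma). *IER2* was also higher in replicate 2 in all 3 lines (25 and 37, 30 and 41, 33 and 35), and *BTG2* was lower (28 and 24, 39 and 29, 33 and 19), with a log2 difference of -0.46 ± 0.14. This order in all 3 lines was found upwards in 23.1% of all genes and downwards in 19.8%.

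**Figure D3:**
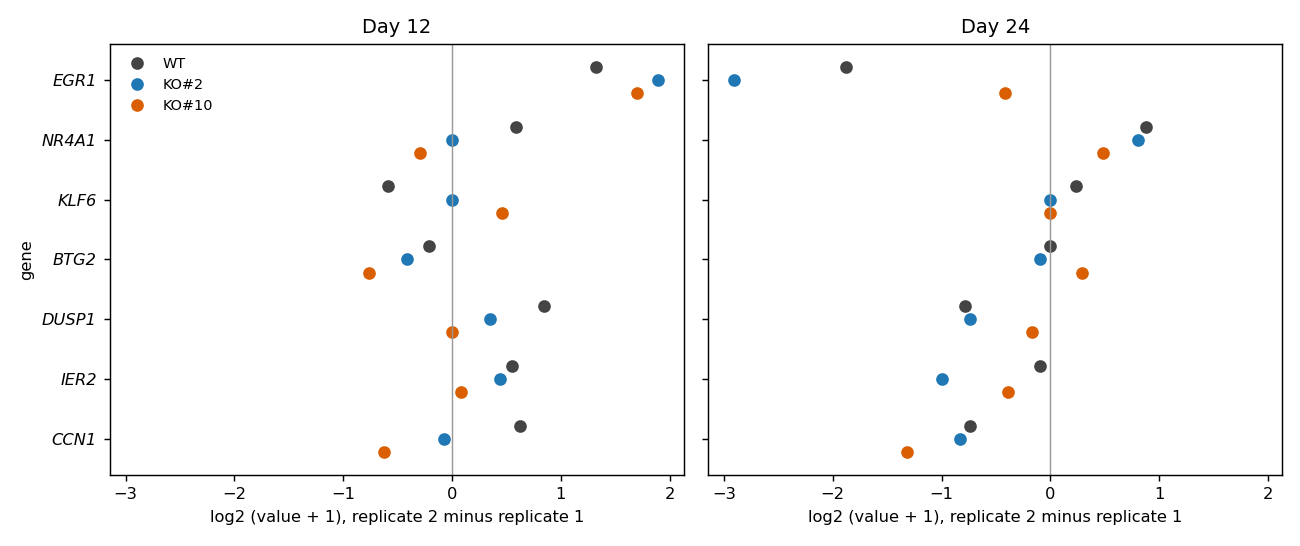
Difference of log2 (value + 1) between replicate 2 and replicate 1 of the same line (horizontal axis) for each gene on days 12 and 24, with 1 point for each line. *EGR1* lies at 1.32 to 1.89 on day 12 and at -2.91 to -0.42 on day 24.

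On day 24 the replicate numbers did not pair the libraries over all genes, and no test was made. *EGR1*, *IER2*, *DUSP1* and *CCN1* were lower in replicate 2 in all 3 lines, 4 of 7 genes against 13.9% of the 9952 genes, and *NR4A1* was higher in all 3, against 13.6%. The log2 difference of *EGR1* between the replicates was -1.87 in WT, -2.91 in KO#2 and -0.42 in KO#10, and that of *CCN1* was -0.74, -0.83 and -1.32. *FOS*, the AP-1 gene best known as an immediate early gene, was 34 and 6 for WT, 47 and 1 for KO#2 and 8 and 2 for KO#10 on that day. What a replicate number stands for is not given in the labels, and the source of these differences was not tested.

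Other immediate early genes outside AP-1 were taken from a list of 33, of which 20 are in the table. On day 12, 16 were tested and 14 had a fold change above 0, with a median log2 fold change of 0.45, against a median of -0.0020 over all genes. Of the 16, 5 reached the minimum value of 10 in KO libraries alone and could enter only by being higher there, so that nothing is read from this count and median. *PLK2*, a polo-like kinase, was called, 1 of 16 against 0.0225% of all genes called higher. It was 15 and 16 for WT, 42 and 40 for KO#2 and 33 and 38 for KO#10 (1.25 ± 0.14, adjusted *p* = 0.0280, limma). On day 24, 14 were tested and 10 lay below 0 (median -0.39), with 2 called lower against 3.79% of all genes and 0 higher. These were *KLF10*, a repressor induced by TGF-beta, at 15 and 16 in WT and 5 to 7 in KO (-1.15 ± 0.21, adjusted *p* = 0.0235, limma), and *RGS2*, a regulator of G protein signaling, at 35 and 35 in WT and 8 to 21 in KO (-1.38 ± 0.35, adjusted *p* = 0.0447, limma). Both were also called without KO#10 day 24 replicate 1 (-1.18 and -1.60). *KLF10* reached the minimum value of 10 on day 24 in WT libraries alone and could enter only by being lower in KO. Nothing is therefore read from the count and median of day 24. The median interaction was -0.96 over 16 genes, and *PLK2* was called (-1.57 ± 0.33, adjusted *p* = 0.0399, limma), 1 of 16 against 0.854% of all genes called lower. Without KO#10 day 24 replicate 1, *PLK2*, *RGS2*, *GADD45B*, *PPP1R15A* and *NFKBIA* were called lower for the interaction. These were 5 of 16, against 497 of 9896 genes called lower.

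**Figure D4:**
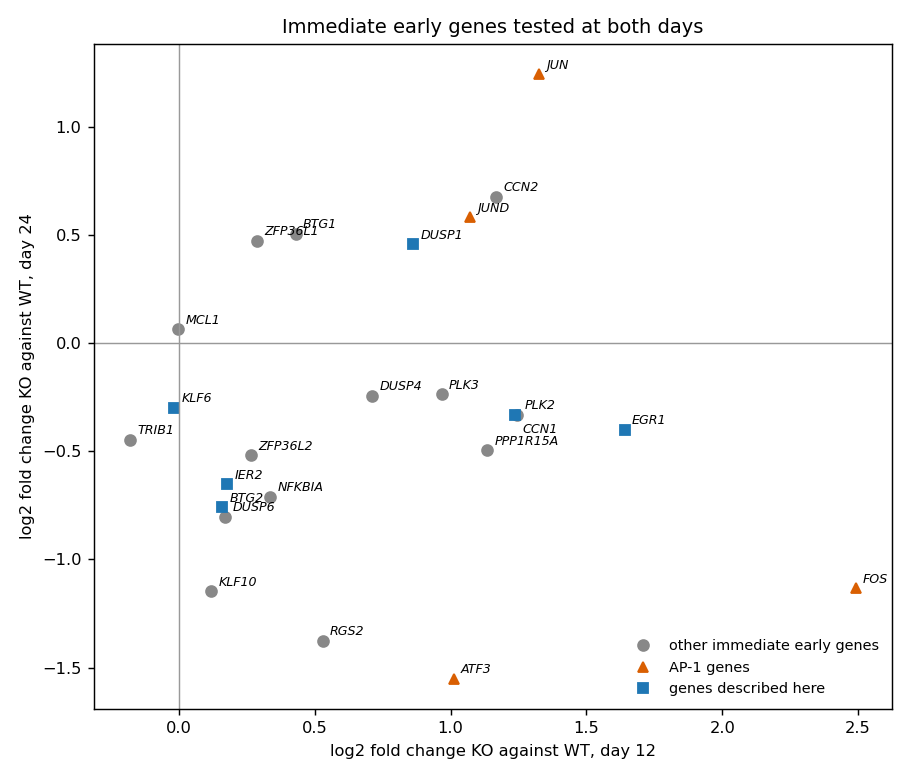
Log2 fold change of KO against WT on day 12 (horizontal) and day 24 (vertical) for the genes tested on both days, 6 of the 7 genes described here (squares), 14 other immediate early genes (circles) and 4 AP-1 genes (triangles). *JUN* lies above 0 on both days (1.33 and 1.25) and *CCN1* above 0 on day 12 only (1.24 and -0.33).

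Of 6 AP-1 genes tested on day 12, 0 were called. *JUN*, *FOS*, *FOSB* and *FOSL2*, 4 of the 6, reached the minimum value of 10 in KO libraries alone and could enter the test only by being higher there, so that no count of directions is given. *FOS* had the largest fold change, 2.49 ± 0.46 (adjusted *p* = 0.108, limma), from 1 and 6 in WT to 14 to 25 in KO. On day 24, when 4.22% of all genes were called higher, *JUN* was called higher (1.25 ± 0.17, adjusted *p* = 0.0184, limma) and *ATF3*, a stress-induced partner of JUN, was called lower (-1.55 ± 0.18, adjusted *p* = 0.0172, limma). Both were also called without KO#10 day 24 replicate 1 (1.33 and -1.62).

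Of 7 tested genes for SRF, its ETS and MRTF partners and CREB, 0 were called between KO and WT on either day. The largest change on day 12 was that of *ELK4*, an ETS partner of SRF, which was 16 and 17 for WT, 34 and 28 for KO#2 and 29 and 39 for KO#10, without overlap (0.93 ± 0.16, adjusted *p* = 0.105, limma). *SRF* itself gave 0.05. Between the days *ELK4* was called lower in KO (-1.09 ± 0.15, adjusted *p* = 0.000765, limma), 1 of 7 against 5.58% of all genes. In WT *MRTFB*, a coactivator of SRF, was called lower (-1.55 ± 0.21, adjusted *p* = 0.00154, limma), 1 of 7 against 7.80%. Without KO#10 day 24 replicate 1, *ELK4* gave -0.97 in KO (adjusted *p* = 0.00217, limma), under the 2-fold limit, so that 0 of 7 genes were called, and *MRTFB* was still called in WT. Of the ERK pathway kinases 0 of 12 were called between KO and WT on day 12 and 0 of 13 on day 24. Without KO#10 replicate 1, *RPS6KA2* was called higher on day 24 (1.10), 1 of 12 against 722 of 9180 genes called higher. It reached 10 in KO libraries alone on that day, so that nothing is read from this call. Genes of ERK feedback and output include dual specificity phosphatases and Sprouty inhibitors. Between KO and WT 0 of 9 were called on day 12. On day 24 *SPRY2* was called lower (-1.305 ± 0.19, adjusted *p* = 0.0196, limma), 1 of 8 against 3.79% of all genes. Without KO#10 replicate 1, *SPRY2*, *DUSP6*, *SPRY1* and *ETV5* were called lower, 4 of 8 against 624 of 9180 genes called lower. In that fit *DUSP6* and *ETV5* reached 10 in WT libraries alone and could enter only by being lower in KO. Nothing is therefore read from this count. Between the days, genes of this list were called lower on day 24 in 8 of 10 in KO, against 5.58% of all genes, and in 3 of 10 in WT, against 7.80%. *DUSP4*, a nuclear relative of *DUSP1*, fell from 39 to 53 to 4 to 10 in KO (-2.53 ± 0.20, adjusted *p* = 4.88e-05, limma), and from 25 and 29 to 10 and 7 in WT (-1.57 ± 0.28, adjusted *p* = 0.00452, limma). *PHLDA1* was the gene of this list called higher in KO, against 5.79% of all genes (1.48 ± 0.30, adjusted *p* = 0.00470, limma).

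*CCN1* and *CCN2* are both known as targets of YAP and TEAD. Of 9 tested YAP and TEAD genes on day 12, 0 were called, against 0.0900% of all genes. Above 0 lay 8 of 9 (median 0.23), against 49.4% of all genes. *CRIM1* reached the minimum value of 10 in KO libraries alone on day 12, so that nothing is read from this count. *CCN2* was 12 and 16 for WT, 25 and 37 for KO#2 and 34 and 35 for KO#10 on that day (1.17 ± 0.19, adjusted *p* = 0.102, limma). On day 24 *CRIM1* was called higher and *TEAD4* lower in KO, 2 of 10 genes against 8.01% of all genes, and also without KO#10 replicate 1. On that day *CRIM1* reached 10 in KO libraries alone and *TEAD4* in WT libraries alone. Each could enter only by being higher in that group, so that nothing is read from these calls. *BTG2* is also a target of p53. Of 10 tested p53 targets 5 were called lower on day 24, against 3.79% of all genes, namely *CDKN1A*, *GADD45A*, *CCNG1*, *SESN1* and *BBC3*, and 0 of 9 were called on day 12. *CDKN1A*, an inhibitor of the cell cycle, gave -1.75 ± 0.39 (adjusted *p* = 0.0345, limma) on day 24. The same 5 genes were called without KO#10 replicate 1. On day 24 *GADD45A* and some of the uncalled p53 targets reached 10 in WT libraries alone. They could enter the test only by being lower in KO, so that nothing is read from this count.

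The genes most like each member over the 12 libraries were ranked by Pearson's r of log2 (value + 1) among 9952 genes, as a description, since libraries share lines and days. They were *FOS* (r = 0.831), *NAGK* and *ALDH1A3* for *EGR1*. For *NR4A1* they were *ZMAT3* (r = 0.961), *STC2* and *BCORL1*, and for *BTG2* they were *ESCO1* (r = 0.951), *SORL1* and *GPR19*. *KLF6* was most like *PCMT1* (r = 0.965), *NDUFB8* and *NAA20*, and *DUSP1* was most like *ODC1* (r = 0.968), *CIAO1* and *MOSPD3*. *IER2* was nearest to *SKIV2L* (r = 0.925), *TSPYL2* and *SPON1*, and *CCN1* to *GAS6* (r = 0.934), *ENPP2* and *EMP1*. Among the members themselves the highest r was 0.723, between *IER2* and *CCN1*, and the lowest was -0.618, between *BTG2* and *KLF6*.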

How the data were processed

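Total RNA of 3 to 4 pooled COs per library was depleted of ribosomal RNA and sequenced by the authors with a strand-specific kit. The submitters' processing notes name bcl2fastq, Bowtie2, RSEM and mm10, without versions, although the coordinates are human. The deposited values are whole-number scores for 10976 genes, which are not raw counts, since the libraries share 1 distribution (totals of 473637 to 483149). The normalization the authors used is not given in the sources used here.

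Values were taken as log2 (value + 1), and a gene entered a comparison if 2 or more of its libraries reached 10. The test was limma 3.58.1 (R 4.3.3, lmFit and eBayes with trend), with Benjamini-Hochberg adjustment over all genes tested. A call needed an adjusted *p* under 0.05 and a log2 fold change of 1 or more in size. The 6 libraries of a day gave KO against WT, and all 12 gave the other comparisons. Fold changes on this scale understate changes of low values. The fits were checked on simulated data. The labels do not say that libraries came from separate cultures, so that *p*-values measure the spread between libraries, which may be technical.

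Libraries with the same replicate number in the labels deviated together on day 12. Across genes, r was 0.459 between WT and KO#2, 0.428 between WT and KO#10, and 0.598 between the clones. On day 24 the same values were 0.212, -0.106 and 0.346, so that only the numbers of day 12 were taken to pair the libraries. Alternatives were other filters and pseudocounts, no trend, centred libraries, replicate blocks, separate clones, all 12 libraries in 1 fit and each library left out. A block on day 12 alone was chosen after seeing the data. The genes and lists were chosen with earlier results of these data known. All 7 genes are given, at most 6 genes of another list (those called, otherwise those with the largest change), and for each gene the 3 most alike over the 12 libraries. *SRF*, *RPS6KA2*, *HSPA5* and the day 24 values of *FOS* were added to that rule after they were seen. Figures were drawn with matplotlib 3.10.9 (Python 3.11.15).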

Additional observations from a re-analysis of the deposited data

Results flagged for a closer look

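A single KO library stood apart from the other 3 of its day, by the gap to its nearest neighbour relative to the range of the 4, in 2 of 14 groups tested. Chance gives about 1 in 20. Both were KO#2 replicate 1 on day 24. *EGR1* was 14 in that library and 1 to 3 in the other KO libraries of the day. *DUSP1* was 29 there and 15 to 17 in the others. The same library had the highest *FOS* value of all, 47. Without it, the log2 fold change of *DUSP1* between KO and WT on day 24 was 0.26 in place of 0.46, and that of *EGR1* between day 24 and day 12 in KO was -1.91 in place of -1.18 (adjusted *p* = 0.0658, limma). The cause was not tested.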

How the results depend on the processing

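Of the called members, *BTG2* and *CCN1* between the days in KO kept their calls under all 7 other settings and all 12 omissions of a library. With the replicate block 0 of 7 genes were called on day 12, 0 on day 24, 2 for the interaction, 1 between the days in WT and 4 in KO. A block on day 12 alone gave 0 for the interaction. The blocks changed no other call. Between the days in WT the count was 0 without a filter, where *DUSP1* had an adjusted *p* of 0.0505 (limma), and 0 with a filter of at least 20, which *DUSP1* did not pass. The count was 1 between the replicates of day 12 when only its 6 libraries were fitted. When 1 library was left out, the counts were 0 to 2 for the interaction, 0 to 1 between the days in WT and 0 to 1 between the replicates of day 12. Small fold changes turned sign in the same way. On day 12 *IER2* ranged from -0.10 to 0.45 and *KLF6* from -0.31 to 0.075, and on day 24 *CCN1* ranged from -0.70 to 0.038. The interaction ranged from -0.83 to 0.019 for *DUSP1* and from -0.57 to 0.011 for *KLF6*. Between the days in WT, *CCN1* ranged from -0.19 to 0.55, *EGR1* from -0.076 to 1.80 and *IER2* from -0.29 to 0.25. The cause of these changes was not tested. The comparison between replicates of day 24 was not run, since its numbers do not pair the libraries. Depth is unknown and limits what low values such as those of *EGR1* and *NR4A1* can show.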

Other observations

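Chaperones and stress genes were counted as a further list of 10. On day 12, 0 of 9 tested genes were called between KO and WT, and 2 had an unadjusted *p* under 0.05 against 11.0% of all genes. *HSPA1B*, an inducible chaperone, had a log2 fold change of 0.98 ± 0.21 (adjusted *p* = 0.145, limma). On day 24, 1 of 9 was called lower against 3.79% of all genes, *DDIT3*, a transcription factor of the unfolded protein response, with -1.84 ± 0.31 (adjusted *p* = 0.0218, limma), and -1.95 without KO#10 replicate 1, when *HSPA5* was called lower as well. *DDIT3* was also called for the interaction of genotype and day (-2.16 ± 0.41, adjusted *p* = 0.0346, limma), 1 of 9 against 0.854% of all genes called lower. In WT it was called higher on day 24 than on day 12 (2.05 ± 0.36, adjusted *p* = 0.00402, limma), 1 of 9 against 6.89% of all genes.

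The BTG and TOB family of antiproliferative genes, to which *BTG2* belongs, gave 0 of 5 calls between KO and WT on either day and 1 of 5 calls between the days in KO, against 11.4% of all genes, which was *BTG2* itself.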
